A study of Mus musculus with 14 samples.

Results

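The 50 genes described here encode the machinery that builds ribosomes. They were picked by name for their place in that pathway, with no measured value in the rule, but with earlier results of these data known. Of the 50, 6 act in transcription by RNA polymerase I, 16 assemble the small subunit, 16 assemble the large subunit, 9 belong to the box C/D or box H/ACA small nucleolar ribonucleoprotein particles (snoRNPs), and 3 are abundant nucleolar proteins with general roles. All 50 are among the 24833 genes of the count table, and all 50 passed the filter on low counts that left 15466 genes to test. The RNA came from mouse bone marrow cells sorted as SLAM hematopoietic stem cells, a gate that keeps Sca-1 and Kit positive cells with CD150 and without lineage markers, Flk2 or CD48. C57BL/6 mice were injected intraperitoneally with the inflammatory cytokine interleukin-1 beta (IL-1β), at 0.5 µg per mouse each day, or with phosphate-buffered saline (PBS). The 4 groups were IL-1β for 20 days (4 libraries), PBS for 20 days (4 libraries), IL-1β for 1 day (3 libraries) and PBS for 1 day (3 libraries). Each library is a biological replicate made from a pool of 3 to 5 mice, so that differences between single animals are averaged within it. Age and sex of the mice are not used here.

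Ribosomes are assembled mostly in the nucleolus. RNA polymerase I transcribes a long precursor RNA from the ribosomal DNA, snoRNPs guide its chemical modification (box C/D particles methylate the ribose, box H/ACA particles turn uridine into pseudouridine), and a series of assembly factors folds, cuts and exports the maturing small and large subunits. The proteins of the Myc family are known activators of many of these genes. Hematopoietic stem cells are known for a low rate of protein synthesis compared with the progenitors they give rise to.

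The libraries held 21654896 to 29441947 counts, and no member had fewer than 570 counts in any library, so that counting error is small beside the spread between replicates. Levels are given as CPM (counts scaled to a common library total, with TMM factors), and changes as the log2 fold change of IL-1β over PBS ± SE. A gene is called when its Benjamini-Hochberg adjusted p over all 15466 genes is under 0.05 in edgeR's quasi-likelihood test. The stem cell markers Slamf1 (CD150), Kit and Mecom were present in every library, and the summed level of 9 stem cell markers was 2650 to 2804 CPM in the IL-1β 20-day libraries, against 2291 to 3355 CPM in the PBS 20-day libraries. By a tag in their titles, whose meaning is not stated, the libraries form 4 naming sets. Replicates 1 and 2 at 20 days carry the tag E061316, replicates 3 and 4 at 20 days carry none (the untagged set), replicates 1 and 2 at 1 day carry E060216, and replicate 3 at 1 day carries 10k. Both treatments are equally represented in each set, and the set enters the fit as a term.

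After 20 days of IL-1β, genes of all 5 classes were lower than with PBS. Of the 50 members, 31 fell and 0 rose, where 3.52% of all genes tested fell and 3.94% rose (7.46% in either direction). The count was 18 in a fit without the term for the naming sets and 39 by DESeq2, and 0 rose by DESeq2. Over the 15466 genes tested, 250 fell without that term and 885 by DESeq2, against 545 in the main fit. At an unadjusted p under 0.05 in edgeR 46 were lower and 0 higher. For counts at an unadjusted p, here and below, no share over all genes tested is given. Without any call, all 50 log2 fold changes lay below 0, between -0.73 (Grwd1) and -0.07 (Ddx10). Their median was -0.41, a 1.33-fold lower level, where the median over all genes tested was 0.00 (-0.00034). In 26 members the 4 IL-1β libraries lay below all 4 PBS libraries of that duration, a pattern that 4.99% of all genes tested showed. None lay above without overlap, as 5.39% of all genes tested did. In 24 members they lay below all 10 other libraries of the study, as in 1.79% of all genes tested. The 50 members together took 0.644, 0.711, 0.624 and 0.585% of all counts in the IL-1β 20-day libraries, against 0.863, 0.812, 0.847 and 0.867% in the PBS 20-day libraries. The groups did not overlap in this share. These are bulk samples in relative units: fewer cells that express the genes and less of their RNA per cell cannot be told apart.

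**Figure D1:**
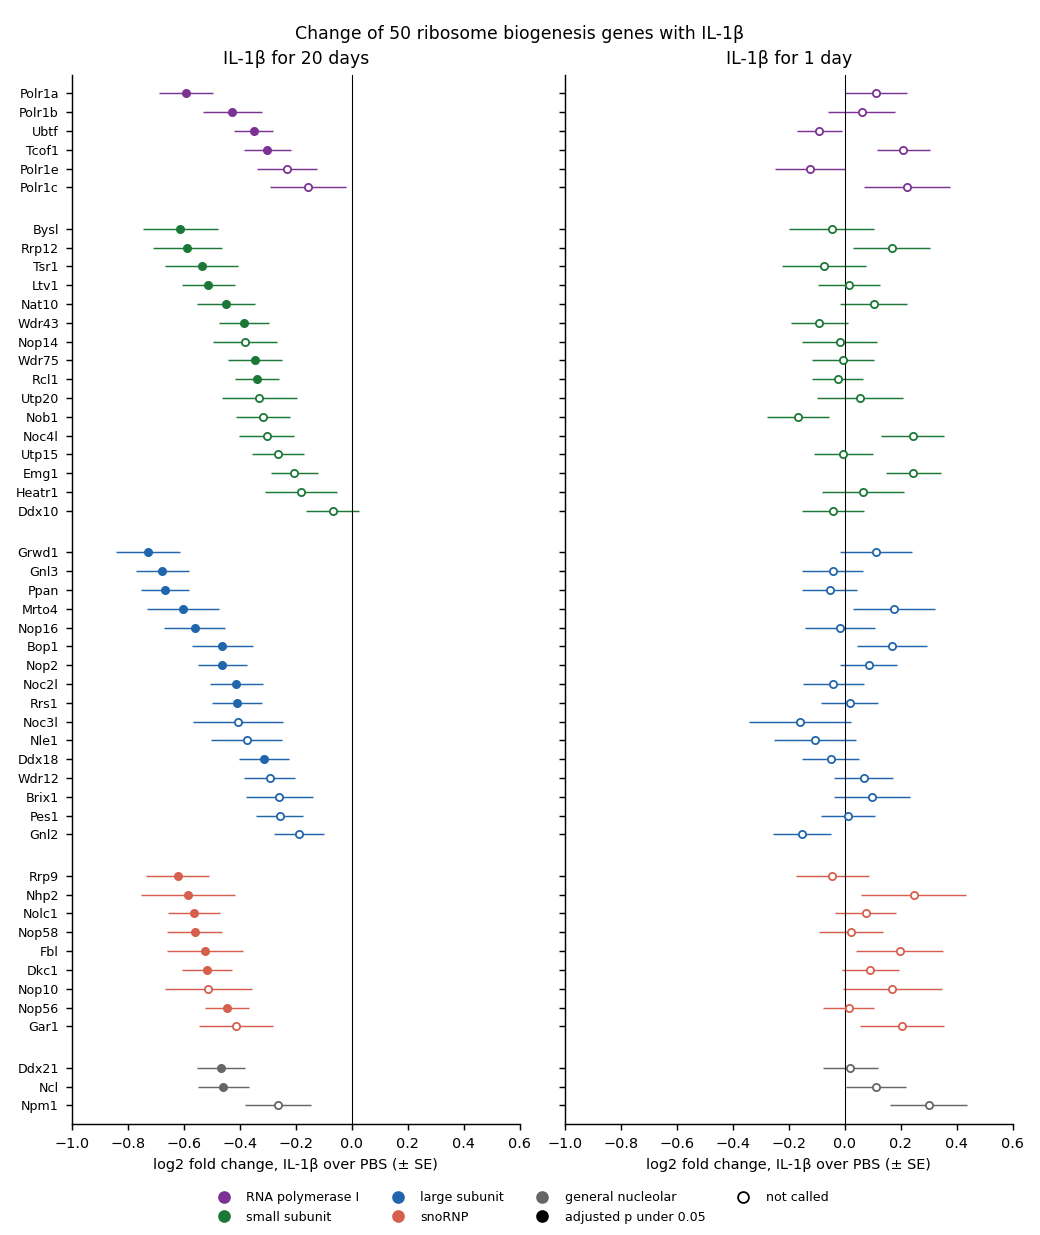
Change of the 50 genes with IL-1β for 20 days (left) and 1 day (right), as log2 fold change over PBS ± SE from the edgeR fit (4 and 4 libraries at 20 days, 3 and 3 at 1 day). Filled points are called at an adjusted p under 0.05. All 50 points lie left of 0 at 20 days and 31 are filled, while at 1 day 30 lie right of 0, 20 left, and 0 are filled.

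Because the members were lower together and the Myc family is known to act on this pathway, the promoters of the members were searched for the canonical E-box bound by Myc, CACGTG, which reads the same on both strands. RefSeq promoter sequences (GRCm38.p6, 250 bases before to 50 bases after the transcript start) matched 43 of the 50 members by symbol. CACGTG occurred in 8 of these 43 genes (18.6%), against 11.6% of the 10632 tested genes that have such a sequence. The related letters CACGCG, counted on both strands and sharing no match with CACGTG, occurred in 14 of the 43 (32.6%), against 19.5% of those tested genes. In 7 of the 8 members CACGTG lay after the transcript start, where 13.8% of the 1476 matches in the tested genes did, and where 16.7% of the window lies. The 8 windows are shown because they hold the motif itself, with up to 12 bases on each side, in the direction of transcription, with the motif in capitals.
Grwd1 (chr7:45830740-45830767, minus strand, GRCm38): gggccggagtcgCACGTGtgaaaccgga
Ltv1 (chr10:13193092-13193121, minus strand, GRCm38): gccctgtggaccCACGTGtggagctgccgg
Nop2 (chr6:125131811-125131840, plus strand, GRCm38): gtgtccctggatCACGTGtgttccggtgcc
Tsr1 (chr11:74898092-74898121, plus strand, GRCm38): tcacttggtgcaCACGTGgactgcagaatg
Wdr43 (chr17:71616220-71616249, plus strand, GRCm38): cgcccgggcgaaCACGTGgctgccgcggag
Nle1 (chr11:82908355-82908384, minus strand, GRCm38): tcggttctcctcCACGTGgggacgcaggat
Pes1 (chr11:3963965-3963994, plus strand, GRCm38): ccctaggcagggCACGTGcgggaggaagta
Utp20 (chr10:88826765-88826789, minus strand, GRCm38): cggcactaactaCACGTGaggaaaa
The first 5 of these genes fell at 20 days and the other 3 were not called, so that 5 of 8 members with the motif and 21 of 35 members without it fell. A match is a description of the letters and does not show binding.

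The genes of RNA polymerase I transcription had a median log2 fold change of -0.33 at 20 days, and 4 of the 6 fell. Polr1a, the largest catalytic subunit of the polymerase (chromosome 6, 71909053 to 71984935, plus strand, GRCm38), had 62.2, 67.2, 67.3 and 71.8 CPM in the IL-1β 20-day libraries, against 118, 103, 100.5 and 84.6 CPM in the PBS 20-day libraries. Every IL-1β library was below every PBS library, and the log2 fold change was -0.59 ± 0.10 (adjusted p = 0.00198), a 1.51-fold lower level. Ubtf, the upstream binding factor of ribosomal DNA transcription, had 177, 194, 179 and 182 CPM with IL-1β, against 244, 228, 225 and 238 CPM with PBS. Its groups were tight and far apart, with a log2 fold change of -0.35 ± 0.07 (adjusted p = 0.00671). Polr1b, which forms the catalytic core with Polr1a, had 85.5, 115, 93.8 and 80.1 CPM with IL-1β, against 129, 136, 134 and 105 CPM with PBS. Here replicate 2 of IL-1β overlapped the PBS group, and the log2 fold change of -0.43 ± 0.10 (adjusted p = 0.0232) did not stay past the threshold when IL-1β replicate 1 (adjusted p = 0.0820) or 4 (0.0650) was left out, or when PBS replicate 2 (0.0571) or 3 (0.0776) was. Tcof1, which encodes treacle, a nucleolar cofactor of ribosomal DNA transcription, fell by 0.30 on the log2 scale, and lost its call in 8 of 14 fits that left out 1 library. Polr1e, a polymerase I subunit, and Polr1c, a subunit shared with RNA polymerase III, were not called, with log2 fold changes of -0.23 and -0.16.

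Among the factors that assemble the small subunit, 8 of 16 fell and the median was -0.34. Ltv1, a factor of late cytoplasmic maturation (chromosome 10, 13178140 to 13193168, minus strand), had 77.9, 92.2, 65.0 and 61.3 CPM in the IL-1β 20-day libraries, against 114, 104, 107 and 93.2 CPM in the PBS 20-day libraries. Its highest IL-1β value stayed just under its lowest PBS value, with a log2 fold change of -0.51 ± 0.10 (adjusted p = 0.00498). Rrp12, known from yeast as a factor of subunit export, had 44.9, 59.3, 33.7 and 35.0 CPM with IL-1β, against 84.2, 73.2, 46.0 and 56.7 CPM with PBS. The untagged set (replicates 3 and 4) was lower than E061316 in both treatments, so the groups overlapped, but within each set both IL-1β libraries were below both PBS libraries. The log2 fold change was -0.59 ± 0.12 (adjusted p = 0.00944), and -0.61 in E061316 and -0.57 in the untagged set. Bysl, which encodes bystin, a factor of small subunit maturation, had 26.7, 38.4, 33.5 and 26.6 CPM with IL-1β, against 56.3, 43.6, 44.3 and 47.1 CPM with PBS. The groups did not overlap, and the log2 fold change was -0.61 ± 0.13 (adjusted p = 0.0129). Exons of Bysl overlap those of Ccnd3 on the other strand over 9.37% of their length, and reads there cannot be assigned, since the kit does not mark the strand and the setting used for counting is not given.

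The other small subunit factors that fell were the processome components Wdr43 and Wdr75, the RNA acetyltransferase Nat10, Rcl1 and Tsr1, with log2 fold changes between -0.54 (Tsr1) and -0.34 (Rcl1). For Tsr1, antisense exons of Srr cover 32.3% of its exonic length, so that its value is uncertain. The 8 that were not called lay between -0.38 (Nop14) and -0.07 (Ddx10), and included Heatr1 and the processome component Utp20, in which replicates of one group differed by more than the groups did. Heatr1, for instance, had 106, 124, 75.6 and 91.3 CPM with IL-1β, against 145, 139.9, 99.0 and 73.6 CPM with PBS. Emg1, an rRNA methyltransferase, Nob1, the nuclease that makes the final cut of the small subunit RNA, and Noc4l had log2 fold changes of -0.20, -0.32 and -0.30, and Utp15 one of -0.26.

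The large subunit group held the lowest fold changes of the 50, with 10 of 16 genes lower and a median of -0.41. Ppan, a factor of early large subunit assembly (chromosome 9, 20888175 to 20892178, plus strand), had 81.3, 90.1, 122 and 109.6 CPM in the IL-1β 20-day libraries, against 147, 127, 170.4 and 196 CPM in the PBS 20-day libraries. The groups did not overlap although the naming sets differed in level, and the log2 fold change of -0.67 ± 0.09 had the smallest adjusted p of the 50 members (0.000342). Gnl3, which encodes nucleostemin, a nucleolar GTP-binding protein of stem and dividing cells, had 106, 131, 111 and 101 CPM with IL-1β, against 176, 165, 197 and 180.02 CPM with PBS. The gap between its groups exceeded the range within either, with a log2 fold change of -0.68 ± 0.09 (adjusted p = 0.000628). Grwd1, a histone-binding WD-repeat protein of large subunit assembly (chromosome 7, 45825223 to 45830944, minus strand), had 59.6, 80.1, 62.1 and 50.7 CPM with IL-1β, against 105, 102, 93.7 and 115 CPM with PBS. It was the most reduced of the 50 members in this fit, 1.66-fold lower, with a log2 fold change of -0.73 ± 0.11 (adjusted p = 0.00127), and it is one of the 8 genes whose promoter window is printed above.

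The other large subunit genes that fell were Mrto4, Nop16, the rRNA methyltransferase Nop2, Bop1, Rrs1, Noc2l and the helicase Ddx18, between -0.60 (Mrto4) and -0.31 (Ddx18). Of the PeBoW complex, in which Pes1, Bop1 and Wdr12 act together, Bop1 fell by 0.46 on the log2 scale (adjusted p = 0.0186). Pes1 and Wdr12 had -0.26 and -0.29 and adjusted p of 0.0823 and 0.0675, and whether the 3 genes differ from each other was not tested. Nle1, Noc3l, Brix1 and the GTPase Gnl2 were not called either, with log2 fold changes of -0.38, -0.41, -0.26 and -0.19. Several of these genes have near copies elsewhere in the genome, at 95% identity or more over at least 100 bases, the longest of them 1984 bases for Ddx18, 1771 for Pes1 and 1377 for Wdr12, and counting could have split their reads.

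The snoRNP proteins had the lowest class median, -0.52, and 7 of 9 fell. Within naming set E061316 the class medians lay close together, between -0.36 and -0.34. All 4 box C/D proteins fell: the methyltransferase fibrillarin (Fbl), its partners Nop56 and Nop58, and Rrp9, which belongs to the particle that helps cut the precursor RNA. Of the 4 box H/ACA proteins, Dkc1 and Nhp2 fell, while Gar1 (-0.41, adjusted p = 0.0737) and Nop10 (-0.51, adjusted p = 0.061) did not pass the test. Nolc1, a nucleolar chaperone of both kinds of particle (chromosome 19, 46075863 to 46085530, plus strand), had 148, 174, 147 and 140.3 CPM in the IL-1β 20-day libraries, against 232, 214, 239 and 214 CPM in the PBS 20-day libraries. The gap between its groups was wider than the range of either group, and the log2 fold change was -0.56 ± 0.09 (adjusted p = 0.00212). Dkc1, dyskerin, the pseudouridine synthase of the H/ACA particles and of telomerase (chromosome X, 75095854 to 75109777, plus strand), had 197, 233, 180.1 and 155 CPM with IL-1β, against 279.98, 281, 269 and 257 CPM with PBS. The groups did not overlap, and the log2 fold change was -0.52 ± 0.09 (adjusted p = 0.00297). Nop58, a core protein of the C/D particles, had 163, 205, 163 and 136 CPM with IL-1β, against 255, 229, 253 and 244 CPM with PBS. These groups did not overlap either, with a log2 fold change of -0.56 ± 0.10 (adjusted p = 0.00321). For Fbl, near copies of up to 984 bases make the counts uncertain.

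Of the 3 general nucleolar genes, Ncl and Ddx21 fell. Ddx21, an RNA helicase that links RNA polymerase I and II transcription, had 98.3, 113, 89.7 and 75.9 CPM in the IL-1β 20-day libraries, against 139, 147, 111 and 123 CPM in the PBS 20-day libraries. Replicate 2 of IL-1β, the highest of its group, lay just above the lowest PBS value, and the log2 fold change was -0.47 ± 0.09 (adjusted p = 0.00414). Nucleolin (Ncl, chromosome 1, 86344719 to 86359400, minus strand), a major nucleolar protein, had 968, 1108, 919 and 769 CPM with IL-1β, against 1386, 1272, 1244 and 1243 CPM with PBS. The groups did not overlap, and the log2 fold change was -0.46 ± 0.09 (adjusted p = 0.00767). Nucleophosmin (Npm1), a nucleolar chaperone, had 581, 634, 470.4 and 452 CPM with IL-1β, against 558, 615, 640.4 and 737 CPM with PBS. Its groups overlapped, it had -0.26 ± 0.12 (adjusted p = 0.225), and near copies of up to 876 bases make its counts uncertain.

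**Figure D2:**
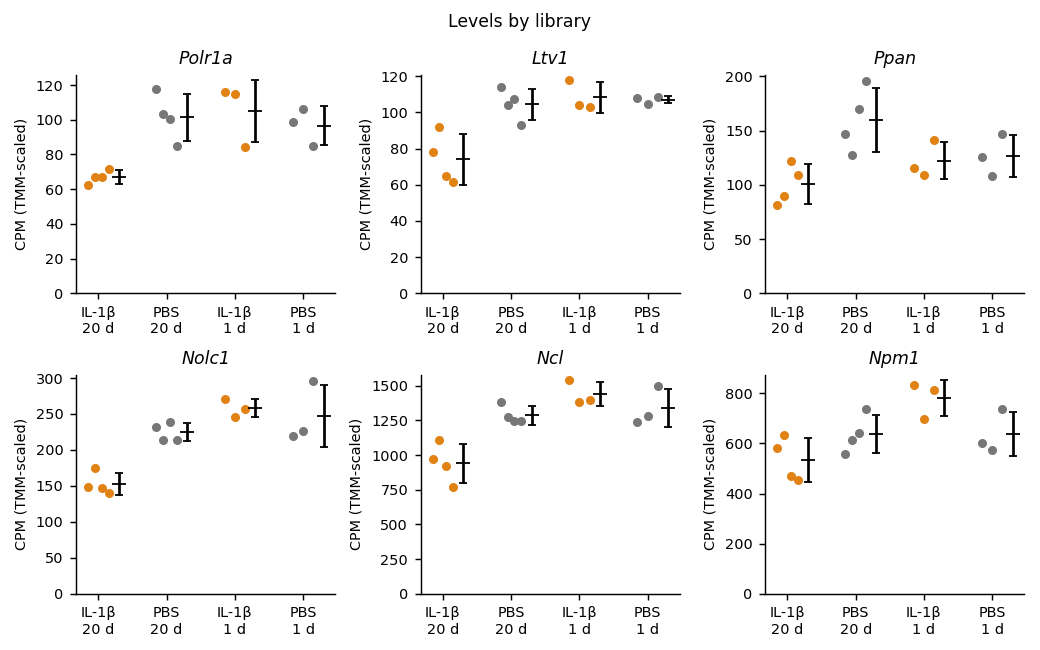
Level of 6 members in each library, as TMM-scaled CPM (points), with the mean and SD of each group beside them (4 libraries a group at 20 days, 3 at 1 day). For Polr1a, Ltv1, Ppan, Nolc1 and Ncl the IL-1β 20-day points lie below all PBS 20-day points, while for Npm1 the groups overlap.

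Levels between genes were compared per kilobase of merged exons. Npm1 was the highest member, with 200.5 ± 32.7 CPM per kilobase with IL-1β for 20 days and 239 ± 28.1 with PBS (SD, n = 4 each). Nop10 followed with 154 ± 33.8 with IL-1β and 218 ± 42.3 with PBS, and with PBS the means of Nop10 and Npm1 differed by less than either SD. Noc2l had 95.4 ± 11.5 with IL-1β and 127 ± 5.09 with PBS, and Ncl had 92.3 ± 13.7 with IL-1β and 126 ± 6.64 with PBS, so that these 2 genes do not differ beyond their spread. Antisense exons of Samd11 cover 20.9% of the exonic length of Noc2l, so that its level is uncertain. The lowest member was Utp20, with 4.28 ± 0.686 with IL-1β and 5.50 ± 1.65 with PBS. Over the 50 members, Spearman's rho between the level per kilobase with PBS and the log2 fold change at 20 days was -0.06, a description over genes that share the same libraries.

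The lower level at 20 days was seen in both naming sets but differed in depth. Measured against the mean PBS library of the same naming set, the median member deviated by -0.44 and -0.24 in IL-1β replicates 1 and 2 (E061316), and by -0.45 and -0.54 in replicates 3 and 4 (untagged). In these 4 libraries 49, 42, 48 and 48 of the 50 members were below the PBS mean. Replicate 2 was the highest IL-1β library for 36 members and replicate 4 the lowest for 31. The median difference between IL-1β and PBS was -0.36 in E061316 and -0.50 in the untagged set, against medians over all genes of 0.00 (-0.0031) and 0.03. In 45 of the 50 members the difference was below 0 in both sets. The exceptions were Polr1c, Brix1 and Npm1, with differences of 0.19, 0.04 and 0.05 in E061316, and Ddx10 and Noc3l, with 0.08 and 0.02 in the untagged set.

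By class medians the snoRNP proteins differed most between the sets, with a median of -0.36 in E061316 and -0.73 in the untagged set. For Nhp2 the difference was -0.11 in E061316, against -1.06 for the untagged libraries. In the same order of sets, Nop10 had -0.08 and -0.94, Gar1 had -0.10 and -0.73, and Fbl had -0.17 and -0.88. Of the 50 members, 36 had the lower difference in the untagged set and 14 in E061316, among them Noc3l, with -0.84 in E061316, and Polr1a, with -0.77 in E061316 and -0.41 in the untagged set. Over the 50 members Pearson's r between the differences in the sets was -0.12 and Spearman's rho was -0.02, a description across genes. In a test added after these differences were seen, edgeR with an IL-1β effect per naming set called 0 of the 50 members as different between the sets, where 0.168% of all genes tested were called (0.0776% with the lower effect in the untagged set and 0.0905% with the higher). At an unadjusted p under 0.05 there were 14 members, 12 with the lower effect in the untagged set and 2 with the higher. The smallest adjusted p was 0.056, for Nhp2, with a difference of -0.96 ± 0.21 between the sets.

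**Figure D3:**
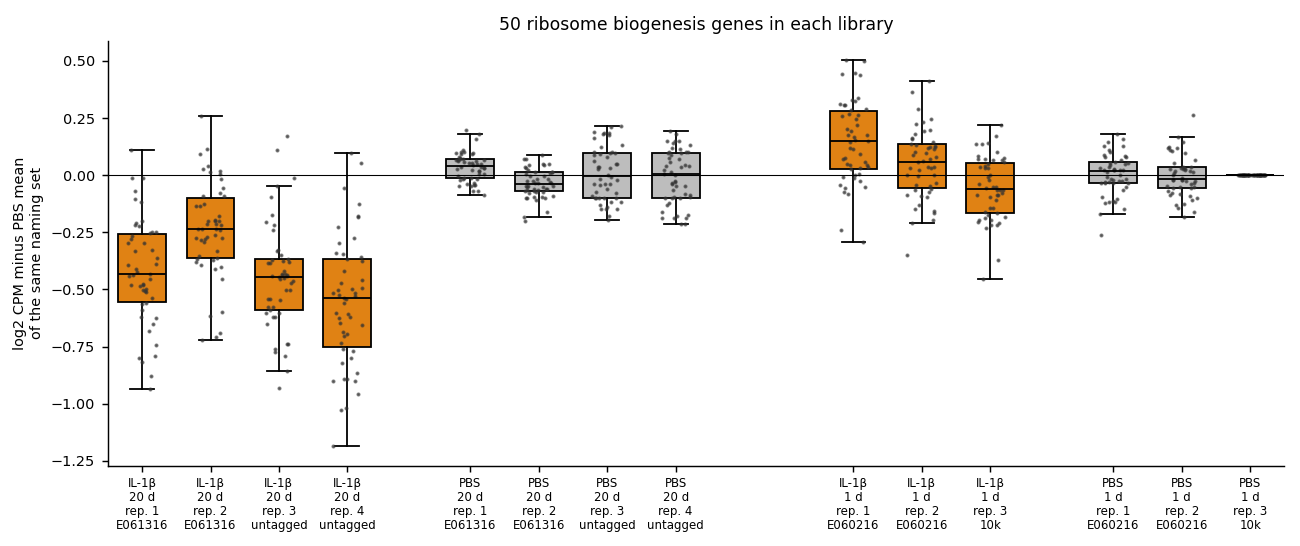
The 50 members in each of the 14 libraries, as log2 CPM minus the mean PBS library of the same naming set (points: genes; box: quartiles and median; whiskers: to the last point within 1.5 times the box height). The medians of the 4 IL-1β 20-day libraries lie at -0.44, -0.24, -0.45 and -0.54, below those of the PBS libraries, and those of the IL-1β 1-day libraries at 0.15, 0.06 and -0.06. The PBS library of set 10k is its own reference and lies at 0.

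**Figure D4:**
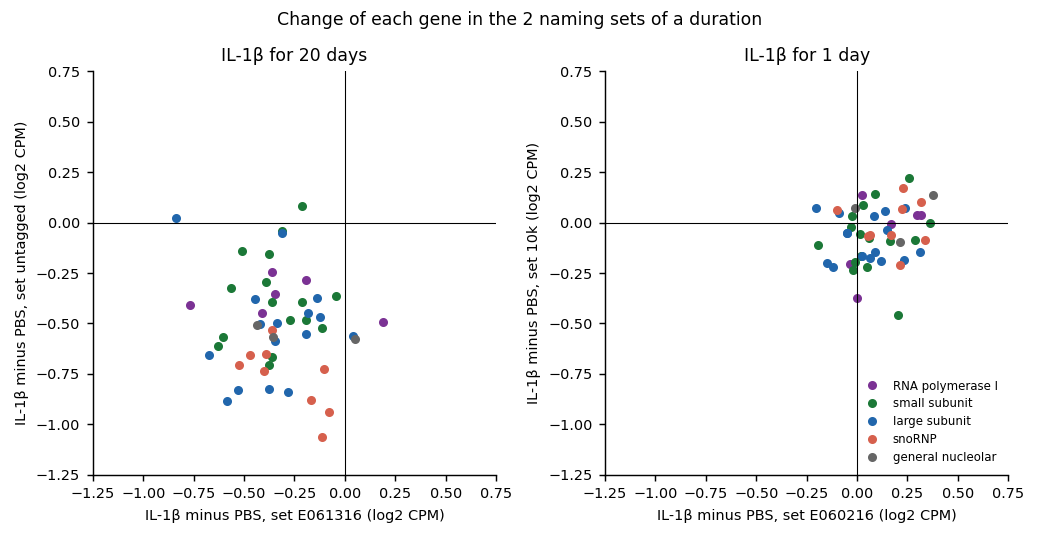
Difference of IL-1β minus PBS in log2 CPM for each of the 50 genes in one naming set against the other, at 20 days (left) and 1 day (right), coloured by class. At 20 days 45 genes lie in the lower left field, with Nhp2 and Nop10 lowest on the untagged axis, while at 1 day the points lie on both sides of 0 in both sets.

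Summed levels of marker genes of other cells were read beside the 20-day change, and not all of them differed. The 13 macrophage genes summed to 57.3 to 70.4 CPM in the IL-1β 20-day libraries, against 53.7 to 94.7 CPM in the PBS 20-day libraries. The B cell genes summed to 52.4 to 62.8 CPM, against 42.0 to 54.4 CPM, and both sums overlapped between the groups. Of 10 genes for markers that the sort removes, 7 have values, and their summed level was 123 to 205 CPM in the IL-1β 20-day libraries, against 54.1 to 84.1 CPM in the PBS 20-day libraries. Most of the sum was Flt3 (77.4 to 145 CPM with IL-1β, against 41.1 to 61.9 CPM with PBS) and Itgam (37.1 to 55.2 CPM, against 7.89 to 21.0 CPM), while Ly6g was at 0 or below 1 CPM in all libraries. Cd48 (3.55 to 9.48 CPM, against 2.81 to 3.72 CPM) and Cd4 (0.937 to 1.25 CPM, against 1.15 to 3.54 CPM) overlapped between the groups. At 1 day the sum was 61.8 to 69.6 CPM with IL-1β, against 60.7 to 95.6 CPM with PBS, and the groups overlapped. The 7 erythroid genes summed to 109.6 to 149 CPM in the IL-1β 20-day libraries, against 22.01 to 42.2 CPM in the PBS 20-day libraries, most of it Hbb-bt (94.9 to 133 CPM, against 7.31 to 22.04 CPM). At 1 day the erythroid sum was 34.5 to 50.5 CPM with IL-1β, against 15.95 to 27.2 CPM with PBS, without overlap. Whether the RNA of these genes came from other cells or from the sorted stem cells was not tested. The part of other cells in the lower level of the members was not tested either. Of 13 neutrophil genes, all of which have values, the summed level was 2699 CPM in IL-1β 20-day replicate 3, against 97.8 to 194 CPM in the other 13 libraries. Without that replicate 23 members fell, with a median of -0.42 over all 50. Over the genes of the main fit, 360 fell without that replicate, against 545 with all libraries.

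Of the 31 members that fell at 20 days, 19 kept the call in every one of 14 fits that left out 1 library. The call was lost in 11 of these fits for Ddx18 and for Nhp2, in 9 for Wdr75 and in 8 for Tcof1. The count went down to 22 without IL-1β 20-day replicate 1 or PBS 20-day replicate 3, and up to 36 without IL-1β 20-day replicate 2. Over the genes of the main fit, 316, 388 and 607 fell in these fits, in the same order, against 545 in the main fit. None of the 50 members changed sign at 20 days in any of these fits.

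After 1 day of IL-1β, 0 of the 50 members were called in either direction by edgeR and 0 by DESeq2, where edgeR called 4.35% of all genes tested (2.52% higher and 1.83% lower). At an unadjusted p under 0.05 there were 4, all of them higher with IL-1β, and the smallest adjusted p was 0.193. The log2 fold changes ran from -0.17 to 0.30, with 30 above and 20 below 0 and a median of 0.02. The members took 0.893, 0.835 and 0.890% of all counts in the IL-1β 1-day libraries, against 0.839, 0.833 and 0.898% in the PBS 1-day libraries, and these groups overlapped. With a median SE of 0.11 on the log2 scale, small changes of single genes were not detectable. In data simulated with a spread estimated from these libraries, a log2 fold change of -0.5 was called in 40% of 50 changed genes at 1 day. At 20 days it was called in 60%. A gene that was not called at 1 day is therefore not shown to be unchanged.

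In each class the gene with the smallest p at 1 day is given here. Emg1, the rRNA methyltransferase, had 179, 162 and 179 CPM in the IL-1β 1-day libraries, against 148, 138 and 153 CPM in the PBS 1-day libraries. These groups did not overlap, but the log2 fold change of 0.24 ± 0.10 did not pass the test (adjusted p = 0.193). Tcof1 had 244, 242 and 240.5 CPM with IL-1β, against 184, 213 and 234 CPM with PBS, without overlap and with 0.21 ± 0.09 (adjusted p = 0.251). Npm1 had 832, 698 and 813 CPM with IL-1β, against 603, 573 and 739 CPM with PBS, which overlapped. It had the largest log2 fold change of the 50 members at 1 day, 0.30 ± 0.14 (adjusted p = 0.254). Gar1 had 69.5, 66.3 and 82.0 CPM with IL-1β, against 63.4, 53.0 and 72.8 CPM with PBS, and Gnl2 had 164, 156 and 159.6 CPM, against 172, 176 and 186 CPM. Gar1 overlapped between the groups (0.21 ± 0.15, adjusted p = 0.517), and Gnl2 did not (-0.15 ± 0.10, adjusted p = 0.478). In all, 3 members (Tcof1, Noc4l and Emg1) were higher without overlap and 1 (Gnl2) lower, where 8.75 and 8.91% of all genes tested were. The snoRNP proteins and the 3 general nucleolar genes had log2 fold changes above 0 in 8 of 9 and 3 of 3 genes at 1 day, but in set 10k the snoRNP median was -0.06, against 0.21 in E060216.

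The change at 20 days was then tested against the change at 1 day as an interaction. Each naming set holds libraries of 1 duration, so that an effect of IL-1β that differs by duration and one that differs by naming set cannot be told apart. All 50 estimates of the 20-day minus the 1-day effect lay below 0, with a median of -0.49. Of the 50 members, 8 had a lower 20-day than 1-day effect and 0 a higher one, where 0.989% and 1.15% of all genes tested did (2.14% in either direction). They were Polr1a (-0.70 ± 0.15, adjusted p = 0.0327), Rrp12 (-0.75 ± 0.18, adjusted p = 0.0498), Grwd1 (-0.84 ± 0.17, adjusted p = 0.0294), Ppan (-0.61 ± 0.13, adjusted p = 0.0334), Gnl3 (-0.63 ± 0.14, adjusted p = 0.0414), Nop2 (-0.55 ± 0.13, adjusted p = 0.0498), Nolc1 (-0.64 ± 0.14, adjusted p = 0.0384) and Dkc1 (-0.61 ± 0.14, adjusted p = 0.0393). Ncl had -0.57 ± 0.14 and just missed the threshold (adjusted p = 0.05004). Polr1a averaged 67.1 ± 3.91 CPM with IL-1β and 101 ± 13.5 CPM with PBS at 20 days (SD, n = 4 each), while it averaged 105 ± 17.99 CPM with IL-1β and 96.6 ± 11.1 CPM with PBS at 1 day (SD, n = 3 each). Grwd1 averaged 63.1 ± 12.3 CPM with IL-1β and 104 ± 8.82 CPM with PBS at 20 days, while it averaged 118 ± 9.13 CPM with IL-1β and 109 ± 12.4 CPM with PBS at 1 day.

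These 8 interaction calls depend on the design and on single libraries. The count was 0 with the replicate number as a block, 0 without the term for the naming sets and 28 by DESeq2. Over the 15466 genes tested, 3, 7 and 605 had a lower 20-day than 1-day effect in these fits, against 153 in the main fit. None of the 8 members kept the call in all 14 fits that left out 1 library. With 1 library left out, the count was 0 without IL-1β 1-day replicate 1 or 2, PBS 1-day replicate 2 or IL-1β 20-day replicate 1. It was 1 without PBS 1-day replicate 1 or IL-1β 20-day replicate 4, and 2 without IL-1β 20-day replicate 3 or PBS 20-day replicate 3. It was 22 without IL-1β 20-day replicate 2 and 16 without PBS 20-day replicate 4. Over the genes of the main fit, 11, 8, 9 and 49 had a lower 20-day than 1-day effect in the fits with 0, in the order given. In the same way there were 26 and 43 in the fits with 1, and 53 and 53 in those with 2. There were 366 without IL-1β 20-day replicate 2 and 281 without PBS 20-day replicate 4. Over the 2 tests together, 8 members fell at 20 days and had a lower 20-day than 1-day effect, as 0.472% of all genes tested did, 23 fell at 20 days without that difference being called, and 19 were called in neither. Between the PBS groups, the log2 ratio of 20 days over 1 day had a median of -0.05 and a range of -0.29 to 0.34 over the 50 members. Of the 50 members, 1 (Ubtf) had PBS groups that did not overlap, lower at 20 days, where 2.64% of all genes tested were lower and 3.26% higher without overlap. Naming set and duration cannot be told apart there.

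Mycn and Myc, the family's transcription factors, were followed as known regulators of the pathway. Mycn had 169, 199, 110.4 and 132 CPM in the IL-1β 20-day libraries, against 381, 411, 322 and 291 CPM in the PBS 20-day libraries. The highest IL-1β value lay far below the lowest PBS value, and the log2 fold change was -1.22 ± 0.09 (adjusted p = 5.51e-06). At 1 day Mycn had 237, 228 and 162 CPM with IL-1β, against 339, 366 and 199.95 CPM with PBS. These groups overlapped, since PBS replicate 3 lay below IL-1β replicates 1 and 2. The log2 fold change was -0.50 ± 0.11 (adjusted p = 0.0158). However, the adjusted p was 0.105 and 0.0997 when IL-1β 1-day replicate 1 or 2 was left out, and 0.0582 and 0.101 when PBS 1-day replicate 1 or 2 was. Myc had 401, 465, 420.2 and 388 CPM in the IL-1β 20-day libraries, against 569, 529.7, 559 and 578 CPM in the PBS 20-day libraries, and 529, 496 and 449.8 CPM in the IL-1β 1-day libraries, against 637, 666 and 536 CPM in the PBS 1-day libraries. The groups did not overlap at either duration, with -0.42 ± 0.08 (adjusted p = 0.00413) at 20 days and -0.32 ± 0.09 (adjusted p = 0.0581) at 1 day. The 20-day effect on Mycn was lower than the 1-day effect, by -0.72 ± 0.14 (adjusted p = 0.0275), and for Myc the same difference was -0.10 ± 0.12 (adjusted p = 0.713). As for the members, duration and naming set cannot be told apart in these differences. Mycl, the third gene of the family, was at 0 or below 1 CPM in all libraries. Whether the lower levels of Mycn and Myc bear on the members was not tested.

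A list of 103 other ribosome biogenesis genes, also chosen with earlier results of these data known, was read in the same way. At 20 days 23 of the 103 fell and 0 rose, where 3.52% of all genes tested fell and 3.94% rose. Their median log2 fold change was -0.22, and 91 lay below 0, as did 50.1% over all genes tested. By class, 1 of 10 RNA polymerase I genes, 8 of 39 small subunit genes, 11 of 44 large subunit genes and 3 of 10 snoRNP genes fell. The 3 with the smallest p were Rrp1b, a nucleolar factor of large subunit maturation, Aatf and Rrp15. Rrp1b had 70.3, 90.5, 94.3 and 77.5 CPM in the IL-1β 20-day libraries, against 108, 107, 136 and 121 CPM in the PBS 20-day libraries, a log2 fold change of -0.50 ± 0.10 (adjusted p = 0.0059). Aatf had 100.4, 102, 103 and 97.8 CPM with IL-1β, against 136, 122, 135 and 148 CPM with PBS, a log2 fold change of -0.42 ± 0.08 (adjusted p = 0.00653). Rrp15 had 61.9, 64.9, 56.7 and 51.4 CPM with IL-1β, against 78.9, 78.1, 81.9 and 92.5 CPM with PBS, a log2 fold change of -0.50 ± 0.11 (adjusted p = 0.0108). In all 3 genes the IL-1β values lay below the PBS values. The count of 23 fell to 6 without IL-1β 20-day replicate 1, to 10 without replicate 3 or 4, to 13 without IL-1β 1-day replicate 2 or PBS 20-day replicate 3, to 14 without PBS 20-day replicate 1 and to 15 without PBS 1-day replicate 2. Over the genes of the main fit, 316, 360, 332, 433, 388, 410 and 453 fell in these fits, in the same order, against 545 in the main fit. At 1 day 0 of the 103 were called by edgeR, 12 had an unadjusted p under 0.05 (9 higher and 3 lower), DESeq2 called 5 higher and 1 lower, and the smallest edgeR adjusted p was 0.0644 (Ruvbl2). Over the genes of the main fit, DESeq2 called 738 higher and 661 lower at 1 day, and 885 lower at 20 days. The 78 cytosolic ribosomal protein genes, the building blocks that these factors assemble, had 0 calls by edgeR at 20 days, with 13 lower and 0 higher at an unadjusted p under 0.05, while DESeq2 called 1, which was lower. All 78 of their log2 fold changes were below 0, with a median of -0.20.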

How the data were processed

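RNA of 14 SLAM cell libraries was sequenced. Per the labels' protocols, cDNA was amplified with a SMARTer low-input kit, which does not mark the strand, made into Nextera XT libraries and read from a single end. Per the submitters' processing notes, the genome build was GRCm38.p4 and the tools, whose roles they leave out, were STAR 2.4.2a, Trimmomatic 0.32, DESeq2 1.12.3, HTSeq 0.6.1, Cuffdiff and Cufflinks 2.0.2. Neither the strand setting nor the annotation is given there. The deposited counts are raw, in a single table keyed by gene symbol, with 24833 genes and no total under 2. Totals of 21654896 to 29441947 counts per library bear on the counting error. Reads carry no molecular identifiers. An interval from the counts alone would cover counting error only, whereas the SE given here comes from a fit that estimates the spread between libraries. Within groups, 18 pairs of replicates had a chi-square per degree of freedom of 11.2 to 81.4, more than sampling noise gives.

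The test was edgeR 4.0.16 (R 4.3.3; TMM factors, filterByExpr with a minimum count of 10, robust quasi-likelihood F-test, two-sided), in 1 fit of all 14 libraries with naming set and an IL-1β effect per duration (8 residual degrees of freedom, biological coefficient of variation 0.198). Benjamini-Hochberg adjustment ran over the 15466 genes tested. The SE, the size of the log2 fold change over the root of its F statistic, is approximate. Naming set differences use log2 CPM means, and marker sums use CPM of the library totals. The steps were tested on simulated data. Alternatives were upper-quartile and RLE factors, no filter, no naming set term, a replicate block, the libraries of 1 duration, DESeq2 1.42.0, leaving out each library and, chosen after seeing the data, an IL-1β effect per naming set. Coordinates and exonic lengths are from GENCODE for GRCm38, promoters from RefSeq (GRCm38.p6). The 50 members, the 103 other genes and the marker lists were chosen with earlier results of these data known. Genes with full values come from a rule: per comparison and class, the 3 called members with the smallest p, or 1 where none was called, the 3 called other pathway genes with the smallest p at 20 days, and Myc and Mycn; Heatr1, Npm1 at 20 days, and the genes shown by naming set or by level per kilobase were chosen after their values were seen.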

Additional observations from a re-analysis of the deposited data

Results flagged for a closer look

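In groups of 4 libraries, 3 of 100 checks of a single value far from the other 3 were positive, and chance gives about 1 in 20. Nop2 stood at 154 CPM and Noc2l, whose exons overlap those of an antisense gene, at 322 CPM in IL-1β 20-day replicate 2, above the other 3 IL-1β 20-day libraries and nearer to the PBS level. Polr1c stood at 76.2 CPM in PBS 20-day replicate 4, above the other 3 PBS 20-day libraries.

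For 8 members the effect of IL-1β differed between the durations by the interaction test in edgeR. The 20-day minus the 1-day log2 fold change was -0.70 for Polr1a, -0.75 for Rrp12, -0.84 for Grwd1, -0.61 for Ppan, -0.63 for Gnl3, -0.55 for Nop2, -0.64 for Nolc1 and -0.61 for Dkc1. In each of them the 20-day change was below 0 and called, and the 1-day change was not called. The number of such members was 0 with the replicate block and 0 without the term for the naming sets. Over the 15466 genes tested, 3 and 7 had a lower 20-day than 1-day effect in these fits, against 153 in the main fit. None of the 8 kept the call in all fits that left out 1 library, and duration and naming set cannot be told apart.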

How the results depend on the processing

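At 20 days the number of members that fell, 31 in the report, was 18 without the naming set term and 22 to 36 in the fits that left out 1 library. It was 27 without a filter, 22 with the 20-day libraries alone, 24 with the replicate block, 31 with RLE factors, 35 with upper-quartile factors and 39 with DESeq2, and 16 members were called in every one of these fits. Over the genes of the main fit, 545 fell in that fit, 250 without the naming set term and 316 to 607 with 1 library left out. There were 447 without a filter, 328 with the 20-day libraries alone and 309 with the replicate block. With RLE factors, upper-quartile factors and DESeq2 there were 559, 621 and 885. The median member log2 fold change at 20 days was -0.46 to -0.38 with 1 library left out. At 1 day it was 0.020, and 0.01 to 0.08 with 1 library left out, but -0.022 with upper-quartile factors and -0.059 within naming set 10k; 0 members were called at 1 day in every fit. The number of members with a lower 20-day than 1-day effect, 8 in the report, was 0 without the naming set term, 0 with the replicate block, 28 with DESeq2 and 0 to 22 with 1 library left out. Over the genes of the main fit there were 7, 3, 605 and 8 to 366 in the same order, against 153 in the main fit. The number of other pathway genes that fell, 23, was 6 without the naming set term, 5 with the replicate block, 7 with the 20-day libraries alone, 36 with DESeq2 and 6 to 26 with 1 library left out. For these settings the counts over the genes of the main fit are those given above for 20 days. Of the values of single genes under these alternatives, 652 kept their direction and side of the threshold, 84 lost the call, 15 gained it, 7 moved by more than the spread and 0 reversed. The cause of these shifts was not tested. Replicate numbers are shared between groups, and same-numbered libraries of a duration also share a naming set. Their deviations from the group means correlated by -0.03 to 0.27 and not all above 0.1. With so few libraries a group, this does not decide whether they were paired. Near copies, antisense exons and 3 or 4 libraries a group limit what can be said of single genes.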

Other observations

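Gene length was related to the level of the members differently from library to library. Over the 50 members, with a median exonic length of 3845.5 bases, Spearman's rho between length and a library's deviation from its group mean ran from -0.60 in PBS 1-day replicate 3 to 0.56 in PBS 1-day replicate 2, and was -0.50 in PBS 20-day replicate 4. The difference of IL-1β minus PBS at 20 days had a rho with length of -0.42 in naming set E061316 and 0.38 in the untagged set. In E061316 the 25 longer genes had a median of -0.39 and the 25 shorter genes -0.21, while in the untagged set the longer genes had -0.45 and the shorter -0.55. In the fit of all libraries the rho with the 20-day log2 fold change was 0.03. These are descriptions over genes that share the same libraries, and the part of length in the difference between the naming sets was not tested.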
